A study of Mus musculus with 10 samples.

Results

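The 33 genes described here make, take up, move, store and export cholesterol: 8 act in the mevalonate pathway, 11 in sterol synthesis, 4 in the control of SREBP, 4 in transport inside the cell and esterification, 2 in uptake, and 4 in efflux and LXR signaling. They were chosen by name, as the genes of the deposited table whose symbol equals one of these members. No measured value entered the rule, but the members were listed with earlier results of these data known. The table holds 56748 genes, 14270 of them were high enough to test, and all 33 were among those.

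RNA-seq was performed on primary adipocytes obtained by adipogenic differentiation of the inguinal stromal vascular fraction (SVF), the cells of subcutaneous fat other than mature adipocytes. Donor mice were male and 6 to 8 weeks old, and cultures were differentiated for 6 to 8 days. The 5 control cultures carried the floxed allele alone (Fam20c-flox), and the 5 KO cultures carried the same allele with a Cre driven by the adiponectin promoter (Fam20c-flox/Adipoq-Cre), so the control group lacked the Cre transgene. Fam20c encodes a kinase of the secretory pathway, and the comparison asks which transcripts depend on it in adipocytes. Adipoq-Cre acts only in cells that have become adipocytes, whereas a differentiated SVF culture can keep other cells. The labels do not say whether the cultures came from separate mice, so p-values measure the spread between these libraries, which may be partly technical. Fewer cells of a type and less RNA per cell cannot be told apart in such bulk samples.

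Cholesterol is built from acetyl-CoA through mevalonate and isoprenoid units to squalene, which is closed to lanosterol and then trimmed to cholesterol. When sterols in the endoplasmic reticulum are low, SCAP carries SREBP2, the product of Srebf2, to the Golgi, where it is cleaved into a transcription factor for the synthesis genes, and INSIG proteins hold the complex back when sterols are plentiful. When oxysterols are high, the LXR receptors raise export through ABCA1 and ABCG1 and, through MYLIP, the degradation of lipoprotein receptors. Adipocytes store much of the body's free cholesterol, at the surface of the lipid droplet and in membranes.

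Total counts were 18949106 to 26237825 per library. Fam20c fell in KO cultures, from 10.2 ± 1.29 (SD, n = 5) CPM (gene counts put on 1 library size with TMM factors) to 7.30 ± 0.449 (SD, n = 5) CPM, with a log2 fold change of -0.49 (adjusted p = 0.0137, edgeR quasi-likelihood test, Benjamini-Hochberg), although counts over the whole gene do not separate the floxed exons. Across all genes tested, 2.17% passed an adjusted p of 0.05, 1.86% lower and 0.308% higher in KO. Adipocyte markers were abundant in every library, with a summed level of 28611 to 29559 CPM in control and 30008 to 32071 CPM in KO cultures, and 0 of 9 passed the limit. Leptin, one of those markers, was near the bottom at 0.5 to 1.6 CPM. Endothelial markers were lower in KO for 9 of 11 genes (158.7 to 193.3 CPM summed in control, 65.4 to 97.2 CPM in KO) and 0 were higher. Lower markers also numbered 3 of 8 for progenitors and fibroblasts, 1 of 10 for macrophages and 0 of 5 for mural cells. On the first principal component, which held 23.5% of the variance, control 4 and KO 1 stood apart from the other libraries of their groups.

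None of the 33 cholesterol genes passed the adjusted p limit of 0.05 in either direction (quasi-likelihood test of edgeR, adjusted by the Benjamini-Hochberg method over all genes tested), and in none did the 5 KO libraries lie clear of the 5 control libraries, an arrangement seen in 3.97% of all genes tested. DESeq2 and limma voom also called 0 of 33. An unadjusted p under 0.05 was reached by 3 members (9.09%), Mylip, Insig2 and Srebf2, against 11.9% of all genes. The estimate was above 0 for 16 members and below 0 for 17, with a median log2 fold change of -0.01 and a range from -0.18 for Mylip to 0.11 for Insig2. The median size of the change, regardless of sign, was 0.04 in members and 0.07 in all genes.

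The data bound the change closely for most members. The 95% interval of the log2 fold change lay within 0.25 on either side of 0 for 26 of 33 members (78.8%), against 6754 of 14270 genes (47.3%), and within 0.5 for all 33. The median standard error was 0.052 in members and 0.084 in all genes tested. Control means started at 8.77 CPM in members but at 0.219 CPM in all genes tested. The comparisons of intervals, errors and sizes of change with all genes are therefore not matched for level. The members that were not bounded to 0.25 were Fdps, Ebp, Dhcr7, Soat1, Lrp1, Mylip and Abca1, and their intervals include a change of that size. The plot of fold changes with their intervals shows this for each gene.

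**Figure D1:**
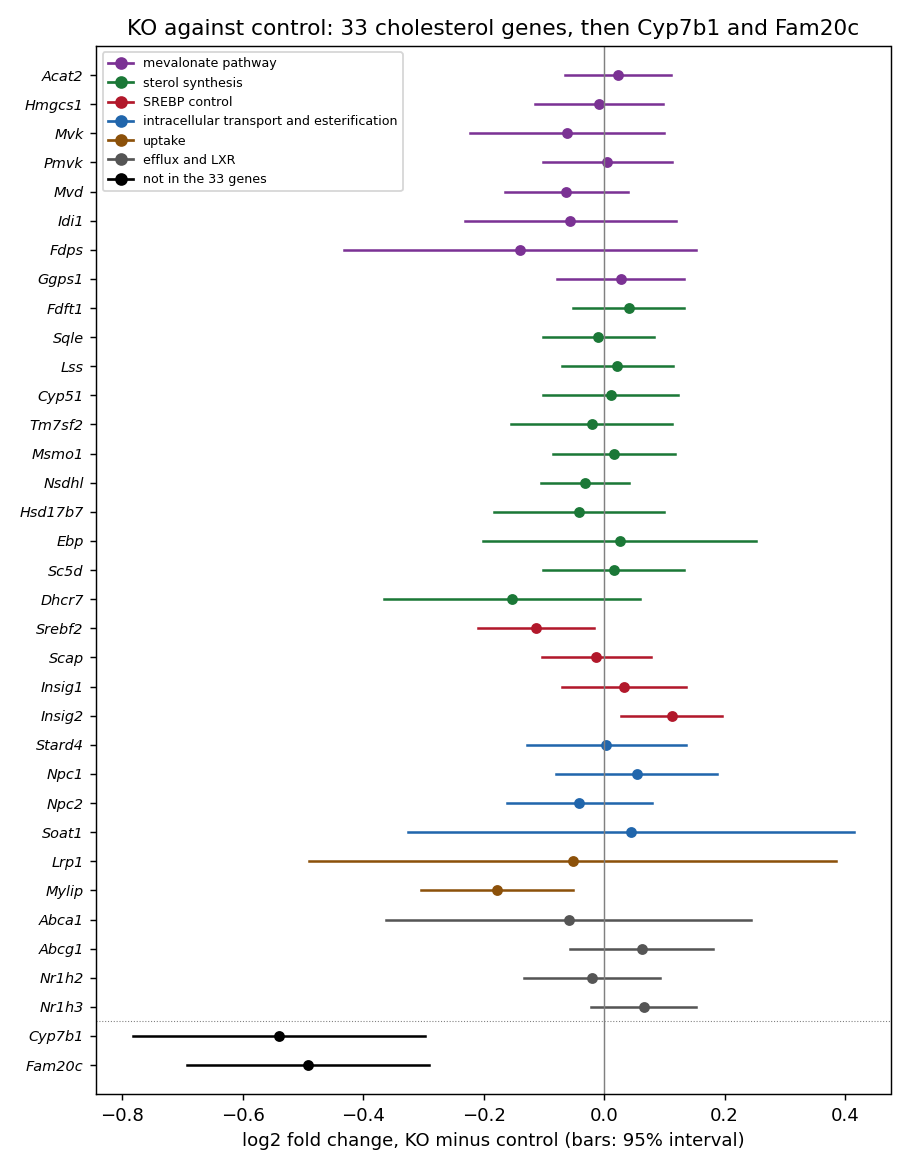
The horizontal axis is the log2 fold change of KO minus control, with points for the estimate and bars for the 95% interval, for the 33 cholesterol genes colored by role and, under the dotted line, for Cyp7b1 and Fam20c. All 33 member estimates sit between -0.18 and 0.11, while Cyp7b1 and Fam20c sit at -0.54 and -0.49.

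The promoter of Hmgcs1 shows the elements through which SREBP2 is known to act, and is printed with that of Idi1, the enzyme a few steps later in the mevalonate pathway. Both are RefSeq windows on GRCm38.p6 from 250 bases before to 50 bases after the start site, written along the gene's own strand, which is plus for both. Capitals mark the core of the sterol regulatory element, searched as TCACNCCAC on both strands, and the CCAAT box, bound by NF-Y, also on both strands (ATTGG is CCAAT read from the other strand), and the motifs do not overlap.
Hmgcs1 (chr13:119690101-119690400): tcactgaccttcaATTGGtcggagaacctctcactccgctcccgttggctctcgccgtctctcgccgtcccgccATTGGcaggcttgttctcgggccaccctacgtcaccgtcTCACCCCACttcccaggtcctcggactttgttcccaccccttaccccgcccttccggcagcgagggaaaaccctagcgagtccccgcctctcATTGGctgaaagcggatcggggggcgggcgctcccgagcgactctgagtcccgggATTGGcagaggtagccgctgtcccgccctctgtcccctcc
Idi1 (chr13:8885356-8885655): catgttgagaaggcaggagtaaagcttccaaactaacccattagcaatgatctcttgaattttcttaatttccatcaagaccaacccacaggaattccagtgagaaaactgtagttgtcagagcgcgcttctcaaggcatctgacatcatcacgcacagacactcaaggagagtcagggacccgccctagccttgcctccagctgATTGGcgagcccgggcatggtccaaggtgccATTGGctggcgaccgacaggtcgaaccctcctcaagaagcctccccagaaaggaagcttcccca

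In Hmgcs1 the sterol element starts 137 bases before the start site. RefSeq windows were matched for 27 of the 33 members, with 34 windows in all, and 1 of these 34 (2.94%), that of Hmgcs1, held TCACNCCAC, against 408 of 32851 windows of all genes (1.24%). CCAAT was in 21 of the 34 member windows (61.8%) and in 12289 of the 32851 (37.4%). Windows for Fdps, Fdft1, Sqle, Stard4, Npc1 and Abcg1 were not used here. A match is a description of the letters in the window and does not show binding.

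Levels differed far more between genes than between genotypes. Per kilobase of exon, in control cultures, Insig1 was highest at 328 CPM per kb, followed by Npc2 at 181, Hmgcs1 at 129 and Cyp51 at 121 CPM per kb. Abca1 and Lrp1, the exporter and the endocytic receptor, lay in the middle at 24.9 and 22.9 CPM per kb. The lowest were Npc1 at 6.43, Tm7sf2 at 3.61, Soat1 at 3.22 and Fdps at 2.08 CPM per kb, a 157-fold range from top to bottom. Within this order, partners in 1 step were unequal: NPC2 and NPC1 pass cholesterol out of lysosomes together, yet Npc2 was 181 and Npc1 6.43 CPM per kb. Length here joined all annotated exons of a gene, 5438 bases for Npc2 and 11317 for Npc1. Their longest transcripts have 3299 and 5756 bases, so the order also depends on annotation. The value of Fdps, at the bottom, is uncertain because of close copies, described below.

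**Figure D2:**
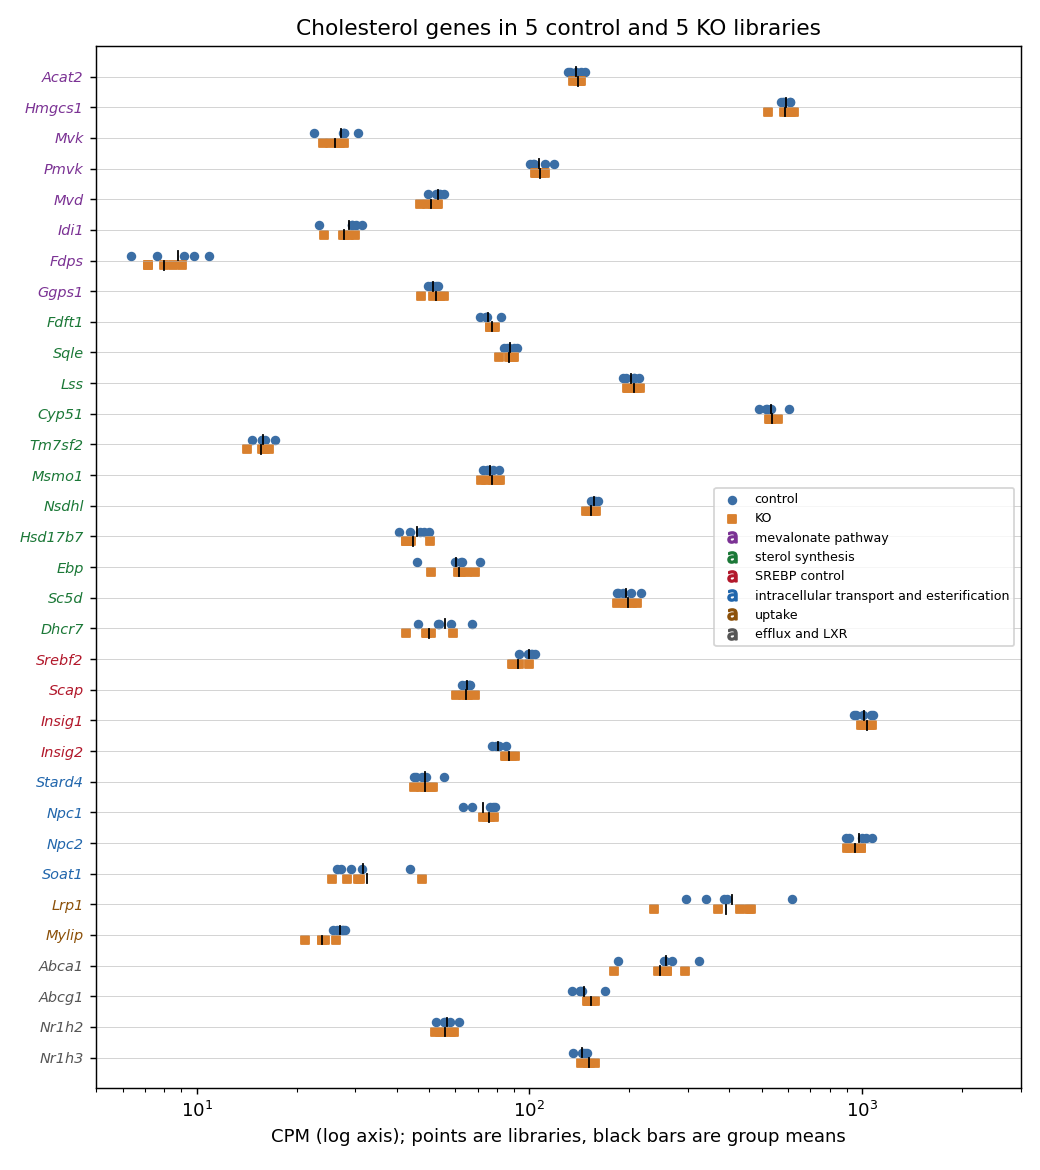
The horizontal axis is the level in CPM on a log axis, with 1 point per library (blue circles for 5 control, orange squares for 5 KO) and black bars for group means, for each of the 33 genes colored by role. Control and KO points overlap in every gene, and the widest scatter within a group is that of Lrp1 and Soat1.

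The mevalonate pathway runs from acetyl-CoA to the prenyl diphosphates. Of its 8 genes, 0 passed the limit, 3 had an estimate above 0 and 5 below, and log2 fold changes ran from -0.14 for Fdps to 0.03 for Ggps1, with a median of -0.03. Hmgcs1, which condenses acetoacetyl-CoA with acetyl-CoA and carries the sterol element shown above, had 607, 572, 584, 580.5 and 609 CPM across control 1 to 5 and 522, 625, 595, 611 and 584 CPM across KO 1 to 5. KO 1 was lowest and KO 2 highest of the 10, and the groups overlapped. Its log2 fold change was -0.01 (SE 0.0488, adjusted p = 0.980, edgeR quasi-likelihood test, Benjamini-Hochberg), with a 95% interval from -0.11 to 0.10. Acat2, the cytosolic thiolase of the first step, had means of 138 ± 6.83 (SD, n = 5) and 140.5 ± 2.98 (SD, n = 5) CPM. The kinases Mvk and Pmvk had fold changes of -0.06 and 0.01 on the log2 scale, and Mvd, which forms isopentenyl diphosphate, had -0.06 (95% interval -0.16 to 0.04). Idi1, its isomerase, had 30.2, 29.4, 29.3, 23.4 and 31.5 CPM across control 1 to 5 and 24.1, 28.7, 27.9, 29.9 and 27.6 CPM across KO 1 to 5. Control 4 and KO 1 were the lowest of the 10 libraries for Idi1, 1 in each group, and the log2 fold change was -0.06 (95% interval -0.23 to 0.12).

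Fdps, which makes farnesyl diphosphate at the branch to sterols and prenyl groups, was counted low and is uncertain. It held 131 to 262 counts per library, and 8.77 ± 1.81 (SD, n = 5) CPM in control against 7.95 ± 0.834 (SD, n = 5) CPM in KO cultures. Transcripts of other GENCODE M21 genes matched it closely: Gm5873, Gm3571 and Gm8163 aligned over 86.2%, 85.9% and 85.9% of its transcript at 96.7%, 98.9% and 96.1% identity, and Gm43738 shares its exons on the same strand. Fragments that fit several genes could therefore be lost or split, and the copies themselves held few, with 201 counts for Gm3571 and 89 for Gm5873 over the 10 libraries, against 1838 for Fdps. Shorter stretches of Acat2 (97.7% identity to Acat3 over 65.6% of its transcript), Fdft1 (Gm6781) and Idi1 (Gm13502) were also shared with other genes. Tm7sf2 and Vps51 share exons on the same strand. Hmgcs1, Idi1, Ggps1, Fdft1, Lss, Cyp51, Scap and Npc1 share exonic bases with a gene on the opposite strand. Such fragments cannot be told apart unless both the library preparation and the counting kept strand.

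Sterol synthesis, from farnesyl diphosphate to cholesterol, showed the same lack of called genes. Of 11 genes, 0 passed the limit, 6 were above 0 and 5 below, with a median log2 fold change of 0.01 and a range from -0.15 for Dhcr7 to 0.04 for Fdft1. Sqle, the epoxidase that commits squalene to sterols and a rate-limiting step, had 86.9, 83.8, 90.2, 85.9 and 92.1 CPM across control 1 to 5 and 88.1, 90.2, 89.4, 87.1 and 81.2 CPM across KO 1 to 5. All 10 values lay between 81.2 and 92.1 CPM, with both groups across most of that range. Its log2 fold change was -0.01 (SE 0.0423, adjusted p = 0.973, edgeR quasi-likelihood test, Benjamini-Hochberg), and the 95% interval put the KO level at 93.2% to 106% of control. Fdft1, squalene synthase, and Lss, lanosterol synthase, had log2 fold changes of 0.04 and 0.02. Cyp51, the demethylase that acts on lanosterol and the second most abundant enzyme of the set per length, had means of 533 ± 42.6 (SD, n = 5) and 537 ± 12.8 (SD, n = 5) CPM. Nsdhl, which removes the methyl groups of the sterol ring, was the steadiest of the 33 genes between libraries, with a within-group SD of 0.0325 on the log2 scale, and its 95% interval was -0.11 to 0.04.

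Dhcr7, the reductase of the final step to cholesterol, had 58.1, 46.4, 53.5, 67.4 and 53.3 CPM across control 1 to 5 and 58.9, 49.3, 42.6, 50.8 and 49.1 CPM across KO 1 to 5. Control 4 was the highest of its group and KO 1 the highest of its own, so the 2 libraries that stood apart from the others were high in both genotypes. The means were 55.7 ± 7.75 (SD, n = 5) and 50.1 ± 5.82 (SD, n = 5) CPM, a log2 fold change of -0.15 (SE 0.0981, adjusted p = 0.618, edgeR quasi-likelihood test, Benjamini-Hochberg; p = 0.262 in a 2-sided exact permutation test of the log2 CPM). Ebp, the isomerase acting shortly before it, showed the opposite order. Ebp had 62.9, 71.0, 62.5, 45.9 and 59.8 CPM across control 1 to 5 and 50.5, 62.2, 68.8, 65.0 and 61.1 CPM across KO 1 to 5. Control 4 and KO 1 were the lowest of their groups for Ebp, and the group means, 60.4 ± 9.12 (SD, n = 5) and 61.5 ± 6.84 (SD, n = 5) CPM, differed by less than that spread.

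Of the 4 genes in the control of SREBP, 0 passed the limit. Srebf2 and Insig2 had an unadjusted p under 0.05 (edgeR quasi-likelihood test), as did 11.9% of all genes tested. Srebf2, the transcription factor itself, had 99.2, 104, 102, 93.2 and 101 CPM across control 1 to 5 and 88.8, 91.0, 93.1, 89.5 and 99.7 CPM across KO 1 to 5. Of the 5 KO values, 4 lay below all control values, and KO 5 lay within the control range. The means were 99.97 ± 4.20 (SD, n = 5) and 92.4 ± 4.36 (SD, n = 5) CPM, a log2 fold change of -0.11 (SE 0.0445, adjusted p = 0.307, edgeR quasi-likelihood test, Benjamini-Hochberg; p = 0.0317 in a 2-sided exact permutation test). Insig2, an anchor that holds SCAP in the endoplasmic reticulum, had 85.1, 81.1, 80.7, 77.1 and 79.5 CPM across control 1 to 5 and 84.4, 88.9, 86.9, 90.5 and 85.3 CPM across KO 1 to 5. KO 1 alone lay below the highest control value, that of control 1. The log2 fold change of Insig2 was 0.11 (SE 0.0389, adjusted p = 0.226, edgeR quasi-likelihood test, Benjamini-Hochberg; p = 0.0159 in a 2-sided exact permutation test), with a 95% interval of 102% to 115% of the control level.

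Insig1, the other anchor and itself a target of SREBP, was the most abundant member and differed little between genotypes. It had 963, 945, 1011, 1084 and 1067 CPM across control 1 to 5 and 1007, 1074, 995, 1060.4 and 1049 CPM across KO 1 to 5. The KO values all fell inside the control range, from 945 to 1084 CPM. Its log2 fold change was 0.03 (SE 0.0476, adjusted p = 0.883, edgeR quasi-likelihood test, Benjamini-Hochberg). Scap, the escort of SREBP, had a log2 fold change of -0.01 with a 95% interval from -0.10 to 0.08.

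Inside the cell, NPC1 and NPC2 release cholesterol from lysosomes, STARD4 carries it between membranes and SOAT1 esterifies it for storage. None of these 4 genes passed the limit, and log2 fold changes ran from -0.04 for Npc2 to 0.05 for Npc1. Npc1 had 79.1, 76.2, 63.1, 78.0 and 67.3 CPM across control 1 to 5 and 75.5, 78.6, 72.5, 76.1 and 74.8 CPM across KO 1 to 5. Control 3 and control 5 were the lowest, and the 5 KO values lay inside the control range. Its log2 fold change was 0.05 (SE 0.0616, adjusted p = 0.832, edgeR quasi-likelihood test, Benjamini-Hochberg). Stard4 had the smallest estimate of the 33, 0.0036 with a 95% interval from -0.13 to 0.14.

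Soat1 had 27.1, 26.4, 29.1, 43.9 and 31.4 CPM across control 1 to 5 and 47.5, 30.9, 28.3, 30.5 and 25.6 CPM across KO 1 to 5. Control 4 and KO 1 were high, 1 in each group, and the other 8 libraries lay between 25.6 and 31.4 CPM. The log2 fold change was 0.04 (SE 0.171). It was 0.19 without control 4, -0.13 without KO 1 and 0.02 without both, and the sign also turned without control 1 (-0.0034) or control 2 (-0.015), while none of these passed the limit.

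In uptake, the estimates of both genes were below 0. Mylip, the ubiquitin ligase that sends lipoprotein receptors to degradation and a known LXR target, had the smallest p of the 33 genes. It had 25.7, 26.4, 27.8, 27.4 and 27.6 CPM across control 1 to 5 and 26.2, 23.8, 23.8, 24.4 and 21.1 CPM across KO 1 to 5. KO 1 overlapped the control libraries and the other 4 KO values lay below all of them. The means were 27.0 ± 0.910 (SD, n = 5) and 23.9 ± 1.83 (SD, n = 5) CPM, a log2 fold change of -0.18 (SE 0.0583, p = 0.00938, adjusted p = 0.188, edgeR quasi-likelihood test, Benjamini-Hochberg; p = 0.0159 in a 2-sided exact permutation test). The KO level was thus placed at 81.0% to 96.5% of control before adjustment for the number of genes. Without KO 1 the adjusted p was 0.0885.

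Lrp1, a large endocytic receptor for lipoprotein remnants and protease complexes, varied most between libraries of a genotype. It had 393, 339, 297, 615 and 386 CPM across control 1 to 5 and 458, 464, 237, 369 and 429 CPM across KO 1 to 5, with control 3 and KO 3 the lowest of their groups and control 4 the highest of all. The within-group SD was 0.399 on the log2 scale, and the log2 fold change of -0.05 had a 95% interval from -0.49 to 0.39. Without control 4 the estimate was 0.15 (adjusted p = 0.721, edgeR quasi-likelihood test, Benjamini-Hochberg).

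Efflux and LXR genes did not pass the limit either, with 2 of 4 above 0 and a range from -0.06 to 0.07 on the log2 scale. Abca1, which loads cholesterol onto apolipoprotein particles, had 269, 254, 185, 323 and 256 CPM across control 1 to 5 and 244, 293, 179, 260.4 and 259.9 CPM across KO 1 to 5. As for Lrp1, control 3 and KO 3 were the lowest and control 4 the highest. The log2 fold change was -0.06 (SE 0.140, adjusted p = 0.938, edgeR quasi-likelihood test, Benjamini-Hochberg), and it was 0.04 without control 4. Abcg1, which passes cholesterol to mature lipoprotein particles, had 144, 142, 135, 169 and 142 CPM across control 1 to 5 and 158, 153, 154, 149 and 149.8 CPM across KO 1 to 5. Control 4 was highest, and all 5 KO values lay above the other 4 control values. Its log2 fold change was 0.06 (SE 0.0550, adjusted p = 0.755, edgeR quasi-likelihood test, Benjamini-Hochberg), and 0.12 without control 4 (unadjusted p = 0.00681, adjusted p = 0.120).

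Nr1h3, LXR alpha, was more abundant per length than Nr1h2, LXR beta, at 57.3 against 16.9 CPM per kb in control cultures. Nr1h3 had 144, 146, 147, 135 and 149 CPM across control 1 to 5 and 150.3, 143, 153, 150.4 and 158 CPM across KO 1 to 5, with control 4 lowest and KO 5 highest. Its log2 fold change was 0.07 (SE 0.0402, adjusted p = 0.593, edgeR quasi-likelihood test, Benjamini-Hochberg; p = 0.0794 in a 2-sided exact permutation test), and that of Nr1h2 was -0.02.

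The spread between libraries of 1 genotype was small for most members, with a median within-group SD of 0.082 on the log2 scale against 0.135 in all genes tested. This comparison is not matched for level either, and the part of level in it was not tested. The within-group SD exceeded the median of all genes in 7 members, Lrp1, Soat1, Abca1, Fdps, Ebp, Dhcr7 and Idi1. Transcript length moved with part of this spread. The median level of the longest 10% of transcripts (1411 genes, at least 6675 bases) relative to the other genes was 0.17 in control 4 and 0.095 in KO 2 on the log2 scale, and -0.16 in control 3 and -0.20 in KO 3. In a relation chosen after the values were seen, Abca1 followed this measure closely across the 10 libraries after centering on group means (Pearson r = 0.99, permutation p = 1e-05, the smallest that 100000 resamples can give, and Spearman rho = 0.89, permutation p = 0.00112). Without control 3 and KO 3, the libraries farthest from the median, r was 0.97. Lrp1 gave r = 0.93 (permutation p = 0.00019) and rho = 0.87 (permutation p = 0.00202), and r = 0.85 without the same libraries. Soat1, also among the longest 10%, gave r = 0.38 (permutation p = 0.284) and rho = 0.16 (permutation p = 0.659). Adjusted over all 33 members, the permutation p of r was 0.00033 for Abca1, 0.00313 for Lrp1 and 0.420 for Soat1, and that of rho was 0.0333, 0.0333 and 0.777. Lss, the last of the 4 members among the longest 10%, had an r of 0.67 (adjusted permutation p = 0.125). Of the 29 members outside this class, 3 also passed by r and none of them by rho. They were Nr1h2 (r = -0.89, adjusted permutation p = 0.00704), Sc5d (r = 0.79, adjusted permutation p = 0.0459) and Stard4 (r = 0.79, adjusted permutation p = 0.0459). Their longest transcripts have 1999, 4787 and 5097 bases. Nr1h2 thus moved against the measure, while Sc5d and Stard4 moved with it. For Nr1h2, Sc5d and Stard4, rho was -0.77, 0.65 and 0.73 (adjusted permutation p = 0.114, 0.180 and 0.114). Without control 3 and KO 3, their r was -0.73, 0.65 and 0.70. An r of at least 0.9 was found for 2 of 33 members (6.06%), for 302 of the 1411 longest (21.4%) and for 404 of all genes (2.83%). The measure is itself built from these 1411 transcripts, which include Abca1, Lrp1, Soat1 and Lss. A higher share of large r among them is therefore partly built in and says nothing more about the relation. The part of transcript length in the spread of Abca1 and Lrp1 was not tested.

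**Figure D3:**
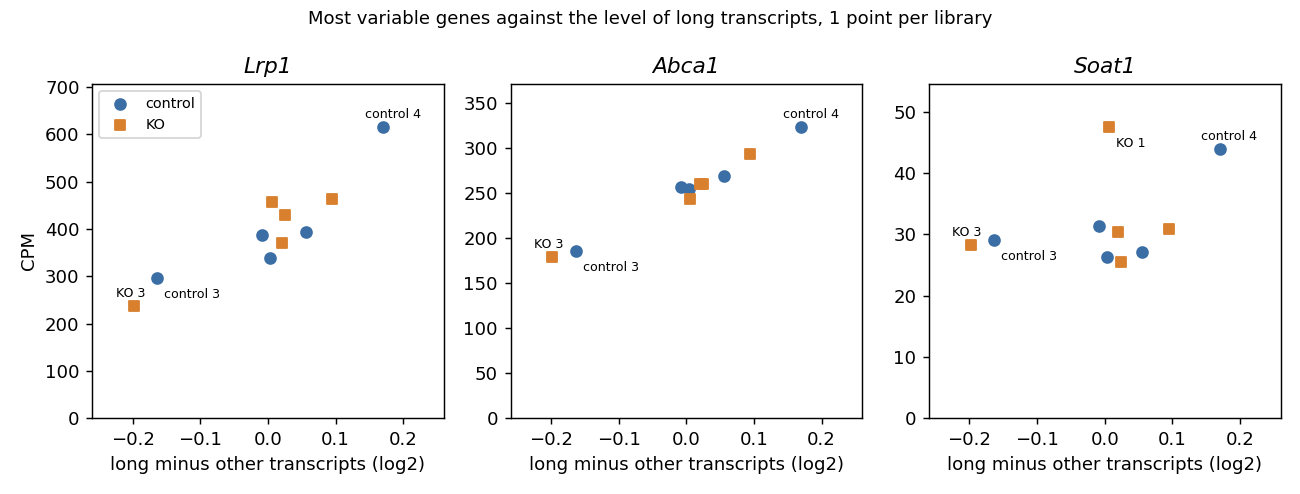
Each panel plots the CPM of 1 gene, Lrp1, Abca1 or Soat1, against the median log2 level of the longest transcripts minus that of the others, with 1 point per library (blue circles control, orange squares KO). Lrp1 and Abca1 climb from KO 3 and control 3 at the left to control 4 at the right, while Soat1 is high in KO 1 and control 4 alone.

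The 19 synthesis enzymes varied together only weakly. Centered on group means, the 171 pairs among them had a median Pearson r of 0.14, with 111 pairs (64.9%) above 0, against a median of -0.001 and 49.9% in pairs of all genes. The range ran from -0.92 for Ebp and Dhcr7 to 0.90 for Sqle and Msmo1, the oxidase acting on the methyl groups of lanosterol's products. Without control 4 and KO 1, the median was 0.097 and 58.5% of pairs were above 0. The lowest pair was then Mvk and Hsd17b7 at -0.83, in place of Ebp and Dhcr7, while Sqle and Msmo1 stayed the highest at 0.99. All 171 pairs share the depth and composition of the same 10 libraries, and the values are given as a description. The mean deviation of the enzymes was lowest in control 4 (-0.058) and in KO 1 (-0.055) within their groups. For the mevalonate genes alone it was -0.14 and -0.10 there, and for the sterol synthesis genes alone 0.0023 and -0.020. The map of deviations shows the same libraries as pale or blue columns in the upper rows.

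**Figure D4:**
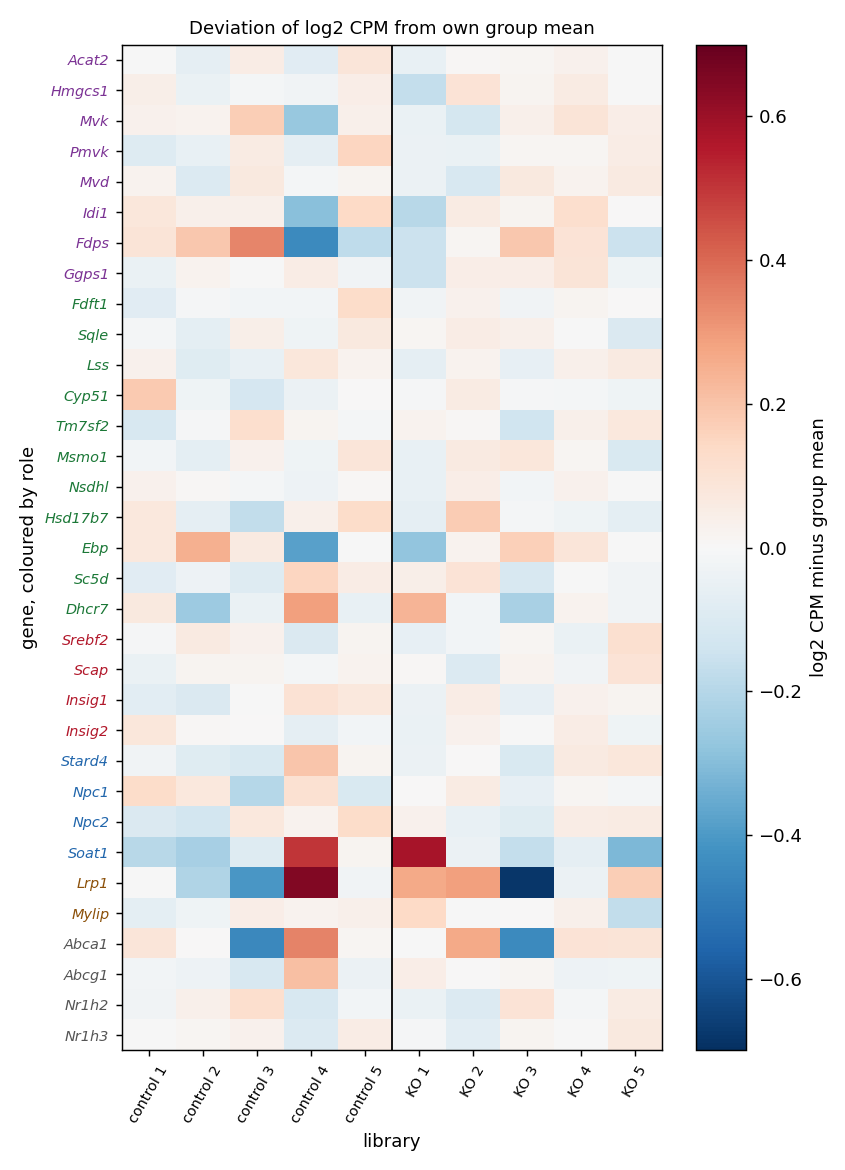
Colors give the log2 CPM of each gene minus the mean of its own group in each of the 10 libraries (columns, control left of the line and KO right), with genes ordered and colored by role. Lrp1, Soat1 and Abca1 have the strongest colors, and Mvk, Idi1, Fdps and Ebp are blue in control 4, where the mean deviation of the mevalonate genes was -0.14.

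Among 8 pairs of members examined across the libraries, none passed after adjustment. Hmgcs1 and Idi1 had a Pearson r of 0.67 (permutation p = 0.0461, adjusted p = 0.199) and a Spearman rho of 0.73 (permutation p = 0.0199, adjusted p = 0.0957), and r was 0.58 without KO 1 and KO 2. Npc1 and Npc2 had an r of -0.59 (permutation p = 0.0713, adjusted p = 0.199) and a rho of -0.72 (permutation p = 0.0239, adjusted p = 0.0957), and r was -0.45 without control 1 and control 3. Hmgcs1 had an r of 0.26 with Sqle, 0.35 with Insig1, 0.10 with Srebf2 and 0.13 with Abca1, with permutation p from 0.337 to 0.779. Abca1 had an r of 0.56 with Abcg1 (permutation p = 0.108) and -0.56 with Nr1h3 (permutation p = 0.0746). Without control 3 and KO 3, these were 0.72 and -0.82 (adjusted permutation p = 0.163 for each). With the measure of long transcripts given above, Abca1, Abcg1 and Nr1h3 had an r of 0.99, 0.60 and -0.61. Npc1 and Npc2 had 0.77 and -0.0027 with it. The part of that measure in the pairs was not tested. All 8 pairs rest on 10 libraries from 2 groups, and a group of 5 is too small for a value of its own.

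Of 53 other listed genes of cholesterol handling, 52 were tested, 1 was lower (1.92%) and 0 were higher (edgeR quasi-likelihood test, Benjamini-Hochberg), against 1.86% and 0.308% of all genes, so the share called lower was that of the background. The lists, 0 called in each, covered SREBP processing (9 tested), isoprenoid branches (10), sterol transport and ester hydrolysis (14), receptors and efflux (7), acetyl-CoA supply (4) and LXR targets (3), and the gene that fell was 1 of 5 oxysterol and bile acid enzymes. Cyp7b1 (chr3:18071950-18243338, minus strand, GRCm38), which hydroxylates oxysterols on the way to bile acids, had 17.0, 16.2, 20.9, 16.1 and 19.6 CPM across control 1 to 5 and 12.0, 10.4, 11.6, 15.8 and 12.0 CPM across KO 1 to 5. Every KO value lay below every control value, KO 4 by the least. The means were 17.96 ± 2.15 (SD, n = 5) and 12.3 ± 2.04 (SD, n = 5) CPM, a log2 fold change of -0.54 (SE 0.112, adjusted p = 0.0235, edgeR quasi-likelihood test, Benjamini-Hochberg; p = 0.00794 in a 2-sided exact permutation test, the smallest that 5 against 5 allows). Cyp7b1 also passed with DESeq2 (adjusted p = 0.000683) and limma voom (adjusted p = 0.0207). In edgeR it passed with median-ratio size factors (0.0255), library totals (0.0212), no filter (0.0046) and the stricter filter (0.0263). It also passed there without control 1, control 2, control 4, KO 1 or KO 4 (0.00454 to 0.0474), and without control 4 and KO 1 together (0.0281). The call still depended on the fit and on which libraries entered. With the replicate block the adjusted p was 0.0556 at a log2 fold change of -0.55 (edgeR quasi-likelihood test). The adjusted p of Cyp7b1 was 0.0667 without control 3, 0.0723 without control 5, 0.0713 without KO 2, 0.0651 without KO 3 and 0.0729 without KO 5 in the same edgeR test, while the log2 fold change stayed between -0.65 and -0.48. Progenitor and fibroblast markers summed to 2763 to 3233 CPM in control and 2379 to 2801 CPM in KO libraries, with 3 of 8 genes lower. Endothelial markers summed to 158.7 to 193.3 CPM in control and 65.4 to 97.2 CPM in KO libraries, with 9 of 11 genes lower. The part of any cell type in the level of Cyp7b1 was not tested. The KO libraries lay clear of the control libraries in 3 of the 52 genes (5.77%), against 3.97% of all genes, and Osbpl9 and Mbtps2, which are named for this after their values were seen, were the others beside Cyp7b1. Osbpl9, a sterol-binding protein, averaged 211 ± 4.68 CPM in control cultures and 236 ± 10.8 CPM in KO cultures (SD, n = 5), with no overlap and an adjusted p of 0.0587 in edgeR quasi-likelihood test, Benjamini-Hochberg, against 0.00332 in DESeq2. Mbtps2, the site-2 protease that releases SREBP from the membrane, averaged 19.98 ± 0.830 (SD, n = 5) CPM in control against 22.2 ± 0.697 (SD, n = 5) CPM in KO libraries. The estimate was 0.15 on the log2 scale (SE 0.0496, adjusted p = 0.196, edgeR quasi-likelihood test, Benjamini-Hochberg; p = 0.00794 in a 2-sided exact permutation test), and DESeq2 gave an adjusted p of 0.214.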

How the data were processed

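RNA-seq libraries were prepared from 5 control and 5 KO cultures, and the authors aligned reads to GRCm38.p6 and counted fragments per gene. The deposited table holds these counts for 56748 genes, unnormalized, in 1 column per library, and 0 columns belonged to other samples. The paper names the SMARTer Ultra Low Input RNA and Nextera XT kits for the libraries, and does not say that strand was kept. The strand setting of the counting is not given in the sources used here. Low genes were removed with filterByExpr (minimum count 10), counts were normalized by TMM, and KO was compared with control by edgeR 4.0.16 in R 4.3.3 (quasi-likelihood test, Benjamini-Hochberg adjustment over all genes tested, limit 0.05), with log2 CPM at a prior count of 2. The edgeR test gives no standard error, so each was derived as the size of the log2 fold change over the square root of F. The 95% intervals added the t quantile to this, and both are approximate. The exact permutation test used all 252 assignments of libraries to groups. Alternatives were DESeq2 1.42.0, limma voom (3.58.1), other size factors and filters, a replicate block, and leaving out libraries; the pair control 4 and KO 1 was left out together after the data were seen. Scripts were tested on simulated data. Gene positions are from GENCODE M21, and copies were sought by BLAST (identity of at least 95% over at least 300 bases).

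The 33 members, the other lists and the markers were chosen with earlier results of these data known. Genes described library by library are the 5 members with the smallest p and Hmgcs1, Sqle, Insig1, Srebf2, Abca1, Abcg1 and Npc1; Ebp, Idi1, Soat1 and Lrp1 were added after their values were seen. Of other genes, those past the limit are named. Permutations of correlations used 100000 resamples. No pair of libraries of a group agreed within sampling noise (chi-square over its degrees of freedom 3.50 or more), which bears only on whether 1 library was deposited under several names. All 10 counted as replicates because the labels list them as separate samples.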

Additional observations from a re-analysis of the deposited data

Results flagged for a closer look

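For the 33 members, Fam20c, Cyp7b1 and Osbpl9 in each genotype (72 groups of 5 libraries), the gap between the extreme library and its nearest neighbor was divided by the range of the group, and 6 ratios lay above 0.71, the 95% value for 5 samples, where chance gives about 1 in 20 groups, or 3.6. For Idi1, the isomerase of isopentenyl diphosphate, control 4 had 23.4 CPM against 29.3 to 31.5 CPM in the other control libraries (ratio 0.736). Soat1, which esterifies cholesterol, was high in control 4, at 43.9 CPM against 26.4 to 31.4 CPM (ratio 0.711), and in KO 1, at 47.5 CPM against 25.6 to 30.9 CPM (ratio 0.755). Abcg1, the cholesterol exporter, was high in control 4, at 169 CPM against 135 to 144 CPM (ratio 0.736). KO 2 stood above its group for Cyp51, the lanosterol demethylase, at 559 CPM against 525 to 534 CPM (ratio 0.730), and for Hsd17b7, the sterol ketone reductase, at 50.3 CPM against 42.5 to 44.1 CPM (ratio 0.792). Control 4 was the highest or lowest of its group for 20 of 33 members (60.6%) and for 59.1% of all genes tested. The shares differed more for KO 2, which was extreme for 17 members (51.5%) against 35.8% of all genes, and for KO 4, extreme for 6 members (18.2%) against 39.4%; these differences were not tested.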

How the results depend on the processing

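In 18 alternative fits (other tests, size factors and filters, a replicate block, and libraries left out), 0 of the 33 members passed the limit, and the smallest adjusted p was 0.0867, for Mylip without control 4 and KO 1. The sign held for 19 members and turned in at least 1 fit for 14, all with a log2 fold change of at most 0.058 in size. With library totals only, it was -0.0169 for Pmvk, -0.0112 for Cyp51, -0.00569 for Msmo1, -0.00558 for Sc5d and -0.0169 for Stard4; with the stricter filter, -0.000204 for Stard4; without control 4 and KO 1 together, 0.0269 for Hmgcs1, 0.0851 for Lrp1 and 0.0418 for Abca1. Over the fits that leave out 1 library or that pair, it was -0.153 to 0.0418 for Abca1, -0.0146 to 0.0598 for Cyp51, -0.0552 to 0.0917 for Ebp, -0.0255 to 0.0341 for Hmgcs1, -0.143 to 0.149 for Lrp1, -0.0019 to 0.0416 for Msmo1, -0.0441 to 0.0129 for Nr1h2, -0.0167 to 0.0445 for Pmvk, -0.00379 to 0.0576 for Sc5d, -0.0369 to 0.017 for Scap, -0.126 to 0.194 for Soat1, -0.0257 to 0.0154 for Sqle, -0.0193 to 0.0667 for Stard4 and -0.0464 to 0.0161 for Tm7sf2. The r of Hmgcs1 with Srebf2 was -0.25 without the farthest 2 libraries. The cause of these turns was not tested.

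Over all genes, 265 were lower and 44 higher, against 359 and 125 with DESeq2, 353 and 145 without control 4 and KO 1, and 164 and 23 without KO 2. Of the other pathway genes, 0 were lower with the replicate block (adjusted p of Cyp7b1 0.0556, edgeR's quasi-likelihood test), 0 to 2 were lower with 1 library left out, and 2 were lower, Cyp7b1 and Lrp8, without control 4 and KO 1 together. DESeq2 called 1 higher, Osbpl9, and 0 to 1 were higher with 1 library left out. The deviations of same-numbered libraries correlated at -0.25 to 0.26, and only library number 3 correlated best with its own number. These correlations cannot decide whether same-numbered libraries were paired, and the labels do not say what the numbers mark. The block changed no call among the members. At 131 to 262 counts per library, Fdps was the member that counting error limits most.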
